A study of Homo sapiens with 7 samples.

Results

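NRF2, encoded by NFE2L2, is the transcription factor that switches on the antioxidant and detoxification genes of human cells. In unstressed cells the adaptor KEAP1 holds NRF2 and passes it to a CUL3 ubiquitin ligase for destruction. Oxidants and electrophiles modify cysteines of KEAP1, so that NRF2 accumulates, pairs with a small MAF protein and binds antioxidant response elements at its target genes. The 9 genes described here, of 63655 in the deposited Cuffdiff table, are NFE2L2, KEAP1 and 7 well-known targets: the quinone reductase NQO1, the haem oxygenase HMOX1, both subunits of glutamate-cysteine ligase (GCLC and GCLM), thioredoxin (TXN), sulfiredoxin (SRXN1) and the peroxiredoxin PRDX1. They were taken by symbol, with a locus on chromosomes 1 to 22 or X. All 9 were found once, and all 9 were among the 24822 genes that the table marks as tested.

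The cells were HEK293, an established human embryonic kidney line, and all groups carried FLAG-HA tagged CNBP, a nucleic acid binding protein with CCHC zinc knuckles. The labels give 4 CNBP knockdown and 3 control knockdown samples and do not say whether the line is 1 clone. The titles number the 4 CNBP knockdown samples as 2 sets of 2, without explaining the sets, so the 4 may not be independent. Nor do the labels say whether samples came from separate cultures. The table gives 1 pooled FPKM (sequenced fragments per transcript length, scaled for depth) for each of 2 conditions, headed siRNA and OE. The heading siRNA was taken to mean CNBP knockdown, from the word itself and the series design. OE is not explained by the labels, which give no group besides CNBP knockdown and control knockdown. It may be the control knockdown samples, which carried tagged CNBP as the CNBP knockdown samples did. If it instead stands for cells with more CNBP than those controls, a fold combines overexpression with knockdown. No value per sample was given, so no SD or n exists for any value below, depth per sample is unknown, and the only replicate error is the one inside the authors' p-values and q-values.

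CNBP, the targeted gene (ENSG00000169714), was listed at 45.5 FPKM in siRNA and 579.8 FPKM in OE (q = 0.00791 in the authors' deposited table). These values cannot separate any RNA of the tagged CNBP from that of the cells' own gene. Of 6 tested HEK293-associated genes, NEFL, a neurofilament subunit, was called higher at 64.7 FPKM in siRNA and 35.9 FPKM in OE; VIM, an intermediate filament gene, was at 413 and 398 FPKM in siRNA and OE, and NEFM, of the same list but not tested, was below 1 FPKM in both. VIM and NEFM were named only after their values were seen. Of the 9 markers of other cell types found in the table, 8 were listed below 1 FPKM in both conditions and not tested. The other was GFAP, an astrocyte filament gene, at 1.70 FPKM in siRNA and 3.24 FPKM in OE, not called.

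None of the 9 NRF2 response genes was called, a call being a q-value under 0.05 in the authors' deposited table (Cuffdiff). Over all tested genes 1.35% were called, so 0 of 9 lies near the background. None had an unadjusted p-value under 0.05 either, where 10.9% of tested genes did, 4.51% higher and 6.41% lower in siRNA. The listed level of 7 genes was higher in siRNA than in OE, by 1.07- to 1.39-fold, where 48.7% of all tested genes were higher, and that of TXN and PRDX1 was lower. When each condition is scaled by its summed FPKM over all genes, TXN and PRDX1 turn to higher, with log2 changes of 0.22 and 0.31. That scaling lifts the median of all tested genes to 0.37, so both stay below it. Among the 7 genes averaging 10 FPKM or more, 5 were higher, against 61.0% of tested coding genes at that level. The median change of the 9 was 0.24 on the log2(FPKM + 1) scale, which understates the change of low genes, against -0.01 over all tested genes and 0.08 over those whose mean was at least 10 FPKM.

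**Figure D1:**
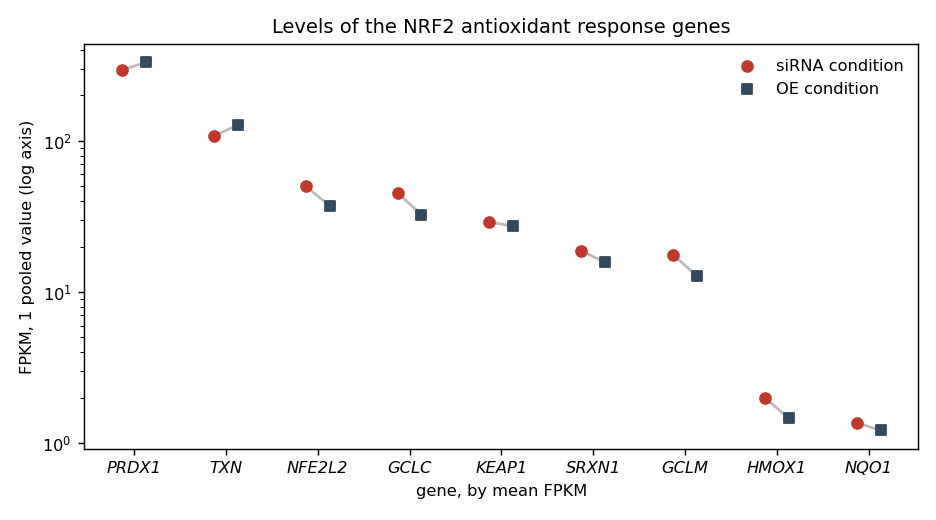
FPKM of each NRF2 response gene on a log axis, with genes ordered by their mean; circles are the siRNA condition and squares the OE condition, 1 pooled value each. The genes span from 1.36 FPKM in siRNA and 1.21 FPKM in OE (NQO1) to 296 FPKM in siRNA and 331 FPKM in OE (PRDX1), and the distance between conditions is small beside the distance between most genes.

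The levels per length stood in the same order in both conditions, from PRDX1 at the top through TXN, NFE2L2, GCLC, KEAP1, SRXN1, GCLM and HMOX1 down to NQO1. Without a spread over samples, neighbours in that order such as NFE2L2 and GCLC, SRXN1 and GCLM, or HMOX1 and NQO1 cannot be separated. By mean FPKM among tested protein-coding genes, PRDX1 stood at percentile 98.6 and TXN at percentile 95.4. HMOX1 and NQO1 stood at percentiles 13.1 and 9.76.

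The factor and its sensor come first. NFE2L2 (ENSG00000116044, chromosome 2, 178092323 to 178408564, hg19) was at 50.1 FPKM in siRNA and 37.2 FPKM in OE. This is 1.35-fold higher in siRNA, a log2 change of 0.42, with p = 0.275 and q = 0.887 in the authors' deposited table. The listed locus is a bundle far wider than the gene and is shared with 9 other genes; the most abundant of these, named only after its values were seen, was AGPS, an enzyme of ether lipid synthesis, at 23.2 FPKM in siRNA and 15.9 FPKM in OE, also not called (q = 0.831 in the authors' deposited table). The listed loci of KEAP1 (1 other gene) and of GCLC, SRXN1 and PRDX1 (2 others each) are shared too, as is that of NQO1, described below. How reads were divided within such bundles, and whether strand was used, is not given in the sources used here, so overlapping genes are uncertain.

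KEAP1 (ENSG00000079999, chromosome 19, 10596796 to 10614417) was at 29.1 FPKM in siRNA and 27.2 FPKM in OE, 1.07-fold apart and the nearest to equal of the 9, with q = 0.999 in the authors' deposited table. NFE2L2 had a level 1.72 times that of KEAP1 in siRNA and 1.37 times in OE. CUL3, the scaffold of the ligase and named only after its values were seen, was at 56.8 FPKM in siRNA and 57.1 FPKM in OE, 1.95 and 2.10 times KEAP1 in siRNA and OE. As RNA levels, these say nothing of the amount or stability of the NRF2 protein, on which KEAP1 acts.

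Glutamate-cysteine ligase, the enzyme that limits the rate of glutathione synthesis, is a pair of a catalytic subunit, GCLC, and a modifier subunit, GCLM. GCLC (ENSG00000001084, chromosome 6, 53362139 to 53481969) was at 45.3 FPKM in siRNA and 32.5 FPKM in OE. Its log2 change of 0.47 was the largest of the set and its p of 0.0855 the smallest, with q = 0.576 in the authors' deposited table. GCLM (ENSG00000023909, chromosome 1, 94350761 to 94374966) was at 17.7 FPKM in siRNA and 12.7 FPKM in OE, a log2 change of 0.45 with p = 0.220 and q = 0.817 in the authors' deposited table. Both subunits were listed 1.39-fold higher in siRNA, so the GCLC level was 2.56 times the GCLM level in siRNA and 2.56 times in OE. Neither subunit passed the test.

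Antioxidant response elements share the core TGACNNNGC, which was searched on both strands in the RefSeq promoter windows (GRCh38.p14, 250 bases before to 50 after each start). Windows were held for 7 of the 9 genes, 9 windows in all, and 2 windows contained the core, against 13.3% of 34943 windows genome-wide. The stretches of 80 bases before the start are shown for these 2, because they match the core of the element that NRF2 binds, and for GCLC, the partner of GCLM, which has none in its window. Capitals mark the core as it reads on the gene's strand; all 3 genes lie on the minus strand.
GCLM chr1:93909431-93909510: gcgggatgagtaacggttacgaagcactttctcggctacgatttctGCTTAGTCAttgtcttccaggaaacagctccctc
KEAP1 chr19:10502772-10502851: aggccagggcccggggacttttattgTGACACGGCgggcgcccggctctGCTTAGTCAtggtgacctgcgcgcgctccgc
GCLC chr6:53545102-53545181: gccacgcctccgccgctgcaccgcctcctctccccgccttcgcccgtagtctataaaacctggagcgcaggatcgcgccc
The GCLM window holds 1 core, 26 to 34 bases before the start and read on the opposite strand. One of the KEAP1 starts holds 2, a pattern seen in 1.12% of windows; the core nearer the start, 23 to 31 bases before it, has the same 9 letters as in GCLM. The other KEAP1 window has none. A match describes letters and is no sign of binding, and elements of these genes that lie outside the windows were not searched.

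The thioredoxin branch held the most abundant members. PRDX1 (ENSG00000117450, chromosome 1, 45959538 to 45988719), which reduces hydrogen peroxide with electrons from thioredoxin, was at 296 FPKM in siRNA and 331 FPKM in OE, a log2 change of -0.16 (0.31 when scaled by summed FPKM over all genes) with q = 0.999 in the authors' deposited table. TXN (ENSG00000136810, chromosome 9, 113006091 to 113018920) was at 108 FPKM in siRNA and 128 FPKM in OE, a log2 change of -0.25 (0.22 under that scaling) with p = 0.182 and q = 0.769 in the authors' deposited table. Under that scaling the median of all tested genes becomes 0.37. TXN has processed copies that can share its reads, and the largest of the 7 listed, TXNP6 (named only after its values were seen), was at 8.27 FPKM in siRNA and 6.51 FPKM in OE.

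SRXN1 (ENSG00000271303, chromosome 20, 627259 to 656823), which restores overoxidised peroxiredoxins, was at 18.7 FPKM in siRNA and 15.7 FPKM in OE. This is a log2 change of 0.24 with p = 0.166 and q = 0.747 in the authors' deposited table. The PRDX1 level was 15.8 times that of SRXN1 in siRNA and 21.1 times in OE. That difference of ratios has no test.

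HMOX1 and NQO1, the targets most often used to read NRF2 activity, were the lowest members. HMOX1 (ENSG00000100292, chromosome 22, 35776354 to 35790207), which cleaves haem, was at 1.99 FPKM in siRNA and 1.46 FPKM in OE. Its ratio was 1.36-fold, with p = 0.133 and q = 0.693 in the authors' deposited table, and its log2 change of 0.28 would be 0.45 without the pseudocount. HMOX2, its constitutive relative and named only after its values were seen, was at 17.0 FPKM in siRNA and 18.0 FPKM in OE, 8.50 and 12.3 times the HMOX1 level in siRNA and OE. NQO1 (ENSG00000181019, chromosome 16, 69740899 to 69760854) was at 1.36 FPKM in siRNA and 1.21 FPKM in OE, with p = 0.711 and q = 0.999 in the authors' deposited table. Its listed locus is shared with another gene, CTD-2033A16.1, named only after its values were seen, at 2.27 FPKM in siRNA and 3.00 FPKM in OE, which is above the level of NQO1 itself.

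The ratios of the 9 genes lie under those called at like levels. Among 7272 tested protein-coding genes with a mean from 10 to under 100 FPKM, the range of NFE2L2, KEAP1, GCLC, GCLM and SRXN1, 107 were called and the smallest called ratio, in either direction, was 1.53-fold. Between 100 and 1000 FPKM, the range of TXN and PRDX1, it was 1.59-fold, with 14 of 750 called. From 1 to under 3 FPKM, the range of HMOX1 and NQO1, it was 1.88-fold, with 33 of 1814 called. No gene with a ratio as small as those of the 9, at most 1.39-fold, was called in these ranges, so the missing calls do not show that the 9 genes were at equal levels.

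**Figure D2:**
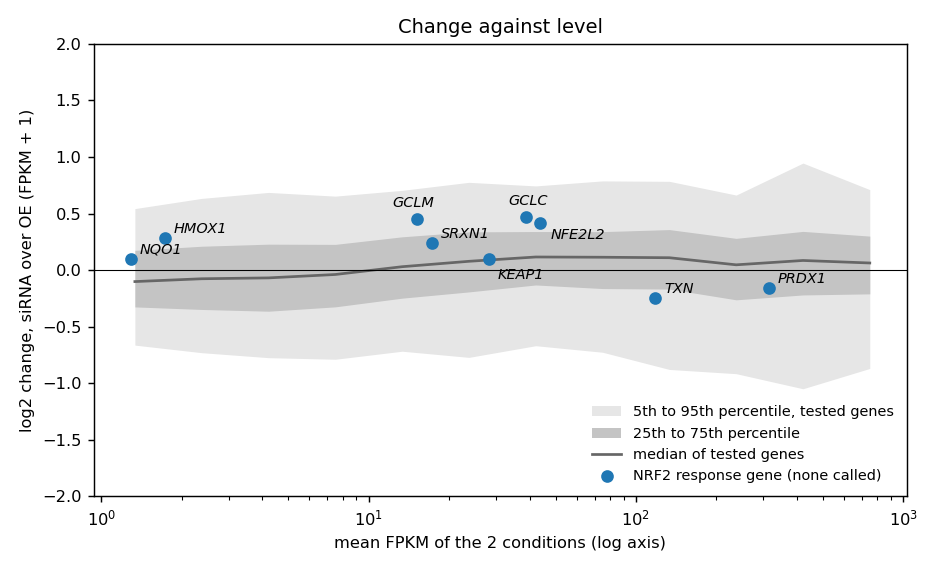
Log2 change (siRNA over OE, FPKM + 1) against mean FPKM on a log axis; points are the NRF2 response genes, bands give percentiles of all tested genes in bins of mean FPKM and the line their median. GCLC (0.47), GCLM (0.45), NFE2L2 (0.42) and HMOX1 (0.28) lie above the inner band, TXN (-0.25) below it, and all 9 inside the outer band. Points and bands are without rescaling. Scaled by summed FPKM over all genes, TXN becomes 0.22 and tested genes averaging 10 FPKM or more shift up by a median of 0.46.

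Across the 12972 tested coding genes averaging 1 FPKM or more and with a known GC content, transcripts rich in G and C tended to be lower in siRNA, so the base content of the 9 is given beside their changes. GC content, taken from the longest annotated coding transcript, ran from 37.3% in GCLM to 60.3% in KEAP1. GCLM lay in the decile with the lowest GC content, whose median log2 change was 0.28, and KEAP1 in the ninth decile, whose median was -0.16. Of the 9 genes, 7 stood above the median of their own decile and 2, TXN and PRDX1, below it. HMOX1 (58.1% GC) and SRXN1 (53.6% GC) had positive listed changes in deciles with medians of -0.11 and -0.04, where 35.4% and 43.8% of genes were higher. TXN (42.8% GC) had a negative one in a decile with a median of 0.17, where 69.7% of genes were higher. All 9 genes lay between the 5th and 95th percentiles of their own decile. TXN turns positive only when scaled by summed FPKM over all genes. That scaling also raises tested genes averaging 10 FPKM or more, by a median of 0.46, and the decile medians are given without it. The part of base content in these values was not tested.

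**Figure D3:**
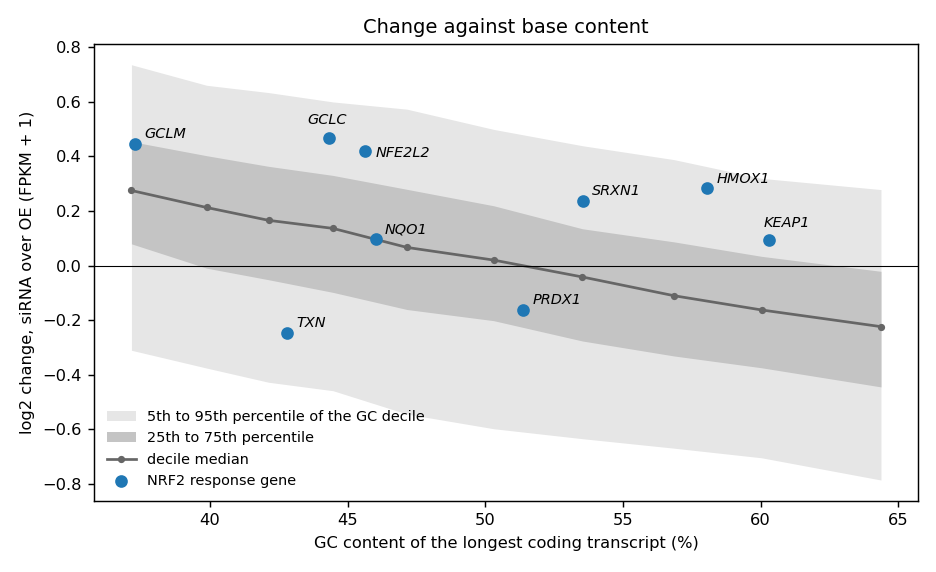
Log2 change (siRNA over OE, FPKM + 1) against GC content in percent of the longest coding transcript; points are the NRF2 response genes, bands give percentiles of 12972 expressed coding genes per GC decile and the line the decile medians. The decile median runs from 0.28 at low GC to -0.22 at high GC, with HMOX1, SRXN1 and KEAP1 above the line and TXN and PRDX1 below it. All 9 genes lie between the 5th and 95th percentiles of their decile.

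Around the members, 122 further genes from 9 pathway lists were looked up, and 111 were tested. None was called higher (0.572% of all tested genes were) and 3 were called lower (0.782% were); at an unadjusted p under 0.05 there were 8 higher and 6 lower of the 111, where 4.51% and 6.41% of all tested genes were. Their median log2 change was 0.06. All 3 lower calls were GC-rich genes. GPX4, the peroxidase that reduces lipid peroxides, was lower at 3539 FPKM in siRNA, against 12657 FPKM in OE. PGLS, which acts in the pentose phosphate pathway that supplies NADPH, was lower at 24.8 FPKM in siRNA, against 52.3 FPKM in OE, with q = 0.00791 in the authors' deposited table for both genes. The PGLS locus is a bundle listed with 3 other genes, so the size of its ratio is uncertain. BLVRB, a biliverdin reductase, was lower at 32.6 FPKM in siRNA, against 52.6 FPKM in OE, with q = 0.0321 in the authors' deposited table. Their GC contents of 65.2%, 66.0% and 63.3% put all 3 in the decile with the highest GC content, whose median log2 change was -0.22; its part in these calls was not tested.

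By role, none of 14 ligase and turnover factors was called (median 0.12); CAND1, which exchanges cullin adaptors, was at 204 FPKM in siRNA and 171 FPKM in OE, and the mitochondrial KEAP1 partner PGAM5 at 113 FPKM in siRNA and 73.8 FPKM in OE. None of 10 partners and competitors was called (median 0.10). BACH1, which represses HMOX1 by occupying the same elements, was at 70.4 FPKM in siRNA and 44.2 FPKM in OE with q = 0.881 in the authors' deposited table, and NFE2L1, a relative of NRF2, at 63.0 FPKM in siRNA and 61.9 FPKM in OE. The BACH1 level was 1.40 times that of NFE2L2 in siRNA and 1.19 times in OE, but the BACH1 locus is a bundle shared with 11 other genes.

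Among 12 genes listed under glutathione synthesis and recycling, GCLC and GCLM included, none was called (median 0.19). The list as fixed also holds GGCX, a vitamin K-dependent carboxylase outside glutathione metabolism, named only after its values were seen. Its log2 change was -0.01, so the median without it would be higher. GLO1, a glutathione-dependent glyoxalase, was at 203 FPKM in siRNA and 171 FPKM in OE, and SLC3A2, the heavy chain of the cystine transporter, at 178 FPKM in siRNA and 162 FPKM in OE. Of 19 genes of the thioredoxin and peroxiredoxin system, which include TXN, PRDX1 and SRXN1, none was called (median 0.03, but -0.0341 when scaled by summed FPKM over coding genes). TXNRD2, the mitochondrial thioredoxin reductase, was at 388 FPKM in siRNA and 398 FPKM in OE, at a locus listed with 4 other genes. TXNRD1, its cytosolic counterpart and an NRF2 target named only after its values were seen, was at 179 FPKM in siRNA and 199 FPKM in OE.

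Of 9 NADPH supply genes PGLS alone was called (median 0.01, but -0.0575 when scaled by summed FPKM over coding genes). Of 9 haem and iron genes, HMOX1 included, BLVRB alone was (median -0.08, but 0.37 when scaled by summed FPKM over all genes). That scaling also brings the median of all tested genes to 0.37. FTL and FTH1, the ferritin chains, named only after their values were seen, were at 396 and 106 FPKM in siRNA and 344 and 94.4 FPKM in OE. None of 23 tested phase II and export genes, NQO1 included, was called (median 0.06, but -0.0003 when scaled over coding genes). GSTO1, a glutathione transferase, was at 136 FPKM in siRNA and 115 FPKM in OE. AKR1A1, an aldo-keto reductase, was at 119 FPKM in siRNA and 130.5 FPKM in OE. The other 8 phase II and export genes were not tested. Of 8 tested superoxide dismutase, catalase and glutathione peroxidase genes GPX4 alone was called (median 0.08). None of 14 tested further NRF2-responsive genes was (median 0.05), with FOCAD at 61.5 FPKM in siRNA and 48.4 FPKM in OE, and LPCAT1, a phospholipid acyltransferase, at 48.3 FPKM in siRNA and 34.5 FPKM in OE.

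**Figure D4:**
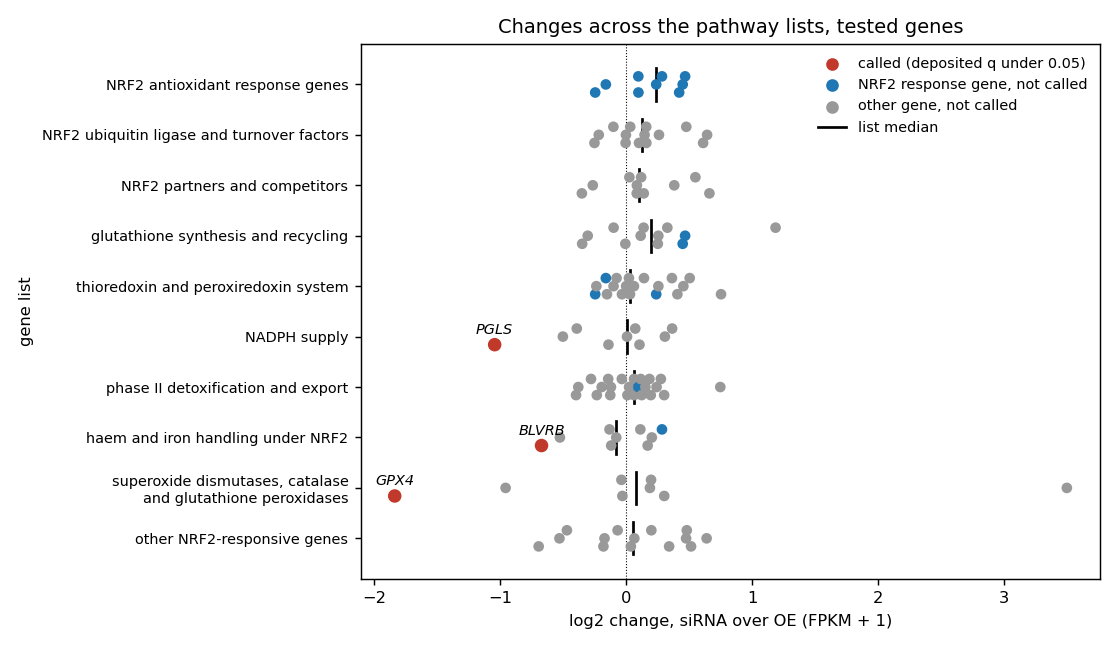
Log2 change (siRNA over OE, FPKM + 1) of each tested gene by list, with a black bar at each list median; red points are called, blue points are the NRF2 response genes and grey points other genes. The medians of the lists as fixed run from -0.08 (haem and iron) to 0.24 (the 9 genes). Scaled by summed FPKM over all genes, they run from 0.37 (haem and iron) to 0.64 (glutathione synthesis and recycling). Under that scaling the 9 genes have 0.58 and all tested genes 0.37. The only called points are PGLS, BLVRB and GPX4, all lower in siRNA.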

How the data were processed

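RNA from HEK293 cells was sequenced from directional libraries, per the labels' protocols. TopHat, Cufflinks, Cuffdiff and hg19 are named in the submitters' processing notes; the sources used here give no versions, settings or annotation. The authors deposited 1 FPKM per gene for each of 2 conditions, with the p-value and q-value of their own comparison. Depth per sample is unknown.

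Folds were recomputed from FPKM as siRNA over OE, with a pseudocount of 1 on the log2 scale. Some cells of the table's own fold column hold spreadsheet errors, so it was not used. A call needed tested status and a deposited q-value under 0.05. No test across samples could be made. Locus starts were printed after adding 1. Gene types and GC content came from GENCODE 29, joined by Ensembl ID, and TIGAR was found by ID. Promoters came from RefSeq.

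The members and gene lists were chosen with earlier results of these data known. Named genes are CNBP, the 9 members, and from each list the called genes or, with none called, the 2 of highest mean FPKM; genes outside this rule are marked in the text as picked later. The Benjamini-Hochberg adjustment and the scaling by the median ratio were tested on simulated data. The scalings by summed FPKM and the deposited q-values were not. Alternatives changed the threshold, filters, adjustment, pseudocount and scaling. Python 3.11.15, numpy 2.4.6 and pandas 2.3.3 were used.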

Additional observations from a re-analysis of the deposited data

How the results depend on the processing

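The 9 NRF2 response genes had 0 calls in either direction at a q-value under 0.01 or 0.1, with a mean of at least 1 or 10 FPKM, and with the Benjamini-Hochberg adjustment recomputed over genes averaging 1 FPKM or more, or over protein-coding genes. Among the 122 further listed genes, 3 lower calls became 2 at a q-value under 0.01 and stayed at 3 otherwise, while 0 higher calls became 2 at a q-value under 0.1. The median change of the 9 was 0.18 to 0.25 under the other pseudocounts and scalings, except 0.11 with a pseudocount of 5, which compresses low genes, and 0.58 when each condition was scaled by its summed FPKM over all genes. That sum is 1.39 times as large in OE, and the scaling lifts the median of all tested genes to 0.37, so the excess of the 9 over all tested genes was 0.22, against 0.25 as reported. Under it TXN became 0.22 and PRDX1 0.31, and the haem and iron list median became 0.37. Scaled by summed FPKM over coding genes, the medians of the thioredoxin, NADPH and phase II lists became -0.0341, -0.0575 and -0.0003. No paired analysis was possible because only pooled values are given, and leaving out a replicate was not run for the same reason. How far depth limits the calls cannot be given.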

Other observations

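The genes in this paragraph were chosen after their values were seen, and none was called. SLC7A11, the cystine transporter subunit that feeds glutathione synthesis and a target of both NRF2 and ATF4, was at 7.97 FPKM in siRNA and 2.95 FPKM in OE, a ratio of 2.70-fold with p = 0.00275 and q = 0.108 in the authors' deposited table. Its GC content of 35.4% lies in the lowest decile, whose median log2 change was 0.28, and its locus is listed with 2 other genes. The part of base content in its ratio was not tested. TXNIP, which binds and inhibits thioredoxin, was at 48.2 FPKM in siRNA and 28.2 FPKM in OE, with q = 0.0878 in the authors' deposited table. GPX2, a glutathione peroxidase known as an NRF2 target, was at 31.3 FPKM in siRNA and 1.87 FPKM in OE, with q = 0.0653 in the authors' deposited table; its locus is a bundle listed with 9 other genes, so the size of that ratio is uncertain. PIR, an iron-binding protein gene known to respond to NRF2, was at 3.21 FPKM in siRNA and 5.81 FPKM in OE, with q = 0.122 in the authors' deposited table. These values stand on both sides of OE.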
